A study of Rattus norvegicus with 12 samples.

Results

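The 10 genes described here act in antigen presentation by MHC class II. They were chosen by symbol: RT1-Da and RT1-Db1 (the rat I-E, or RT1.D, chains), RT1-Ba and RT1-Bb (the I-A, or RT1.B, chains), RT1-DMa, RT1-DMb, Cd74, Ciita, Cd80 and Cd86. Each symbol had 1 entry in each of the 2 expression tables, so they were 10 of 22132 entries in the table of control and adenine kidneys and 10 of 32623 in that of sham and UUO kidneys. All 10 passed the minimum level for testing in both tables, where 15029 and 15043 entries were tested. Cd80 passed that minimum only through its levels in the adenine and UUO groups, so the filter itself favoured a difference for that gene, and counts without it are given.

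RNA was sequenced from the kidneys of 12 male Sprague-Dawley rats labelled wild type, bought at 8 weeks of age, with 3 rats in each of 4 groups. Rats of the adenine group were given 220 mg/kg of adenine daily through a gastric tube over 3 weeks, a chemical model of renal fibrosis, and rats of the control group received saline. Rats of the UUO group had the left ureter tied (unilateral ureteral obstruction, a surgical model) and were examined after 2 weeks, and rats of the sham group had surgery without the ligation. The comparisons ask which class II genes change in each fibrotic kidney and whether both models change them alike. The values are FPKM, that is, fragment numbers divided by transcript length and library size. FPKM summed over all entries was 564972 to 582725 in control, 468389 to 487770 in adenine, 619664 to 630244 in sham and 528811 to 539011 in UUO samples, and the read depth is unknown.

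MHC class II molecules are pairs of an alpha and a beta chain that show peptides from the endosome to CD4 T cells. The invariant chain, encoded by Cd74, holds the groove closed until it is degraded by cathepsins, and DM then exchanges the remaining fragment for peptide. Dendritic cells, macrophages and B cells make class II constitutively, and interferon gamma can induce it in other cells, kidney epithelium and endothelium among them. Ciita is the co-activator without which class II genes are scarcely transcribed. It is recruited by RFX, CREB and NF-Y proteins that sit on the X and Y boxes of class II promoters. Cd80 and Cd86 encode the ligands that give T cells their second signal through CD28.

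The 6 class II chain genes among the members share a place, and 4 of them were found to share a promoter layout. In the RefSeq annotation of GRCr8, 6 of the members lie on chromosome 20 in the order RT1-Da, RT1-Db1, RT1-Ba, RT1-Bb, RT1-DMb and RT1-DMa. They fall within a run of 13 annotated genes, 12 of them protein coding. RT1-Db2, Arrb2-ps, RT1-DOb, Tap2, Psmb8, Tap1 and Psmb9 lie between them. RefSeq promoter windows, from 250 bases before to 50 after the start, matched 8 of the 10 members; Ciita and RT1-DMb had no entry. The stretches below are shown because they carry the paired X and Y motifs on which the class II regulators are known to assemble. They read along the gene's strand, and capitals mark the X box core (ACNGNTG) and the Y box core (GATTGG).
RT1-Da (chr20:4515326-4515378, plus strand): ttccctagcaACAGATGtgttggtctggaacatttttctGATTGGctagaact
RT1-Db1 (chr20:4560230-4560281, minus strand): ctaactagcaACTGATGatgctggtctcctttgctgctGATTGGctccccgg
RT1-Bb (chr20:4604167-4604218, minus strand): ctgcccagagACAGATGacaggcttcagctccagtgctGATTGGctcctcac
RT1-DMa (chr20:4712387-4712439, minus strand): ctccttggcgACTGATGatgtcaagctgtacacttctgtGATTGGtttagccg

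In these 4 promoters the X core stood 21 or 22 bases before the Y core. An X core followed by a Y core 10 to 40 bases on, both on the gene's strand, was present in 55 of 33469 promoter windows of the same length (0.164%). Taken alone and on either strand, the X core was in 38.9% and the Y core in 14.8% of windows. RT1-Ba is shown beside them because it had a Y core without such an X core before it on its own strand, and here capitals mark the Y core alone.
RT1-Ba (chr20:4576975-4577026, plus strand): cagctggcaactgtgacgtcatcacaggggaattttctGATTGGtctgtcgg
The windows of Cd74, Cd80 and Cd86 held no pair of this kind. RT1-Db2 and RT1-DOb, which are not members, held the pair with 20 and 19 bases between the cores. A match is a description of these letters and does not show binding.

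Compared with control rats, adenine rats had higher levels of the whole set: all 10 genes rose (limma, adjusted p under 0.05 over all tested entries). Of the tested entries, 39.6% rose by that rule. As DEGs, which also need a log2 fold change of at least 2, 9 of the 10 were upregulated, against 10.7% of all tested entries, and the exception was Ciita. Without Cd80, 9 of 9 rose and 8 were DEGs. For all 10 genes the 3 adenine rats lay above the 3 control rats, which held for 45.0% of tested entries. The median log2 fold change of the 10 was 2.91, beside 0.30 for all tested entries.

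Compared with sham rats, UUO rats had higher levels of most of the set: 9 of the 10 genes rose, against 56.1% of tested entries, and RT1-Ba did not pass the test. As DEGs, 8 were upregulated, against 13.2% of entries, and the others were RT1-Ba and Cd86. Without Cd80, 8 of 9 rose and 7 were DEGs. The 3 UUO rats lay above the 3 sham rats for 9 genes, against 60.0% of entries. The median log2 fold change of the 10 was 2.41, beside 0.62 for all tested entries. The samples were also scaled by the median of ratios, which brought the median of all entries to 0.01 (adenine) and 0.02 (UUO). The DEGs were then 9 for adenine but 3 for UUO (RT1-Da, RT1-Db1 and Ciita). Under that scaling Cd80 fell below the minimum in the UUO model and was not tested there. In whole kidney tissue, more cells of a class II positive type and more RNA per cell cannot be told apart.

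**Figure D1:**
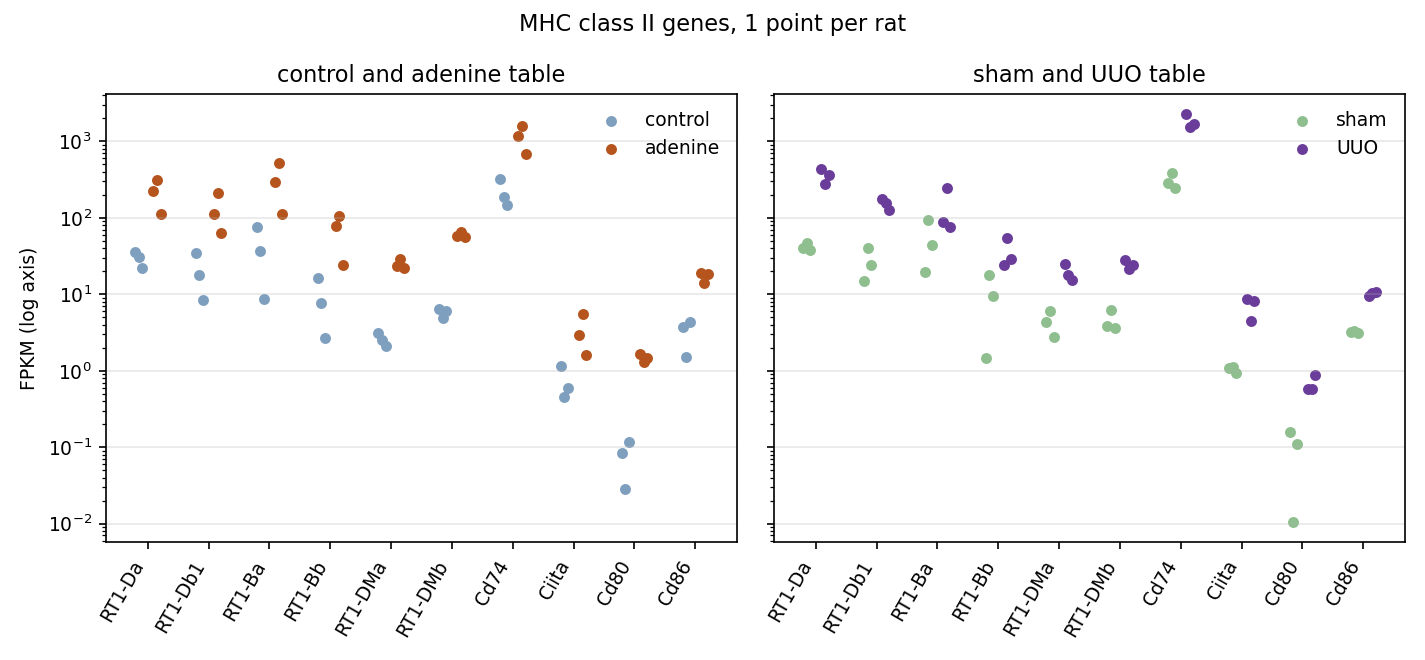
FPKM of the 10 genes on a log axis, 1 point per rat, with control and adenine rats on the left and sham and UUO rats on the right. Cd74 was the highest and Cd80 the lowest of the 10 in every group, and only RT1-Ba in the UUO model overlapped between the groups.

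The RT1.D chains rose in both models. RT1-Da, the alpha chain, stood at 36.2, 30.9 and 22.1 FPKM in the control rats and at 227, 315 and 112 in the adenine rats. Its log2 fold change was 2.78 (SE 0.38, n = 3 per group, limma adjusted p = 0.00104). In the sham rats it was 39.9, 46.6 and 37.8 FPKM and in the UUO rats 437, 280 and 369, a rise of 3.11 on the log2 scale (SE 0.17, limma adjusted p = 2.28e-05), the largest of the 10 genes in that model. The beta chain RT1-Db1 was more variable among rats without disease. It was 35.0, 17.6 and 8.46 FPKM in control rats and 114, 212 and 63.5 in adenine rats (log2 fold change 2.72, SE 0.60, limma adjusted p = 0.00767). Sham rats had 14.8, 40.6 and 24.5 FPKM of RT1-Db1 and UUO rats 178, 156 and 125 (log2 fold change 2.62, SE 0.35, limma adjusted p = 0.000595). Neither chain overlapped between groups in either model. RT1-Db1 has a close relative, RT1-Db2, listed at no more than 0.143 FPKM in any sample, and how reads that match both were assigned is not given in the sources used here.

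The RT1.B chains were the most variable of the class II chains. RT1-Ba was 75.0, 36.8 and 8.66 FPKM in the control rats, an 8.66-fold range within that group, and 293, 528 and 112 in the adenine rats. Its log2 fold change was 3.16 (SE 0.87, limma adjusted p = 0.0184). Without adenine replicate 2 the log2 fold change was 2.64 and no longer passed (limma adjusted p = 0.0564). In the UUO model the groups overlapped, because sham rat 2, at 92.6 FPKM, lay above UUO rats 1 and 3. RT1-Ba was 19.3, 92.6 and 44.8 FPKM in sham and 89.3, 244 and 75.0 in UUO rats, a difference of 1.45 on the log2 scale (SE 0.65, 95% interval -0.10 to 3.00, limma adjusted p = 0.0841). Without sham replicate 2 it was 2.00 and passed (limma adjusted p = 0.0301), while it was 0.87 without sham replicate 1 and 0.92 without UUO replicate 2. It also passed with all samples scaled to the same FPKM sum (limma adjusted p = 0.0484).

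RT1-Bb, the partner of RT1-Ba, was 16.5, 7.80 and 2.67 FPKM in control rats and 79.4, 104 and 24.3 in adenine rats (log2 fold change 3.04, SE 0.77, limma adjusted p = 0.0131). In sham rats it was 1.49, 18.1 and 9.42 FPKM, a 12.1-fold range, and in UUO rats 24.4, 54.1 and 29.3. The groups did not overlap and the log2 fold change was 2.38 (SE 0.86, limma adjusted p = 0.0413). That call was lost with median-of-ratios scaling (log2 fold change 1.79, limma adjusted p = 0.119). It was also lost without sham replicate 3 or without any 1 of the UUO replicates (limma adjusted p = 0.0590 to 0.113), with no filter (0.188) and with no variance trend (0.0583). Without sham replicate 1, the lowest, the log2 fold change was 1.37 (limma adjusted p = 0.0293). The spread of RT1-Ba within groups exceeded that of 98.6% of tested entries in the adenine table and 96.4% in the UUO table, and that of RT1-Bb exceeded 97.9% and 98.0%.

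The DM genes encode the peptide exchanger and showed the least spread of the class II chains in the adenine model. RT1-DMa was 3.10, 2.53 and 2.08 FPKM in control rats and 23.8, 29.2 and 21.9 in adenine rats, a rise of 3.24 on the log2 scale (SE 0.19, limma adjusted p = 4.66e-05). RT1-DMb was 6.34, 4.87 and 6.09 FPKM in control rats and 58.5, 64.8 and 56.2 in adenine rats. Its rise of 3.36 on the log2 scale (SE 0.13, limma adjusted p = 2.48e-05) was the largest of the 10 genes in the adenine model. Each adenine rat thus lay far outside the control range of both genes. After ureteral obstruction the rise was smaller in the fit. RT1-DMa was 4.38, 6.12 and 2.75 FPKM in sham and 24.9, 18.1 and 15.5 in UUO rats (log2 fold change 2.16, SE 0.31, limma adjusted p = 0.000825). RT1-DMb was 3.82, 6.30 and 3.60 FPKM in sham and 28.0, 21.2 and 24.1 in UUO rats (log2 fold change 2.43, SE 0.23, limma adjusted p = 0.000138). No rat of either group overlapped with the other for these genes.

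Cd74 was among the most abundant transcripts of the kidney. By mean FPKM it ranked 296 of all entries in control and 30 in adenine kidneys, and 221 in sham and 17 in UUO kidneys. It was 326, 190 and 148 FPKM in the control rats and 1188, 1603 and 682 in the adenine rats (log2 fold change 2.38, SE 0.40, limma adjusted p = 0.00230). In sham rats it was 290, 385 and 250 FPKM and in UUO rats 2263, 1556 and 1672 (log2 fold change 2.57, SE 0.21, limma adjusted p = 7.94e-05). The lowest adenine rat lay above the highest control rat, and the UUO rats lay above the sham rats by a wider margin.

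Ciita, the co-activator, was a low transcript. It was 1.16, 0.459 and 0.592 FPKM in control rats and 2.95, 5.48 and 1.63 in adenine rats, 1.97 on the log2 scale (SE 0.50, limma adjusted p = 0.0128), just under the DEG threshold. In sham rats it was 1.10, 1.13 and 0.931 FPKM and in UUO rats 8.81, 4.47 and 8.30, a rise of 2.61 on the log2 scale (SE 0.28, limma adjusted p = 0.000245). The groups did not overlap in either model.

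The costimulatory ligands rose from different levels. Cd80 was barely present in kidneys without disease, at 0.0839, 0.0286 and 0.118 FPKM in control rats and 0.158, 0.0105 and 0.109 in sham rats. It was 1.66, 1.295 and 1.48 FPKM in adenine rats (log2 fold change 3.18, SE 0.32, limma adjusted p = 0.000268) and 0.574, 0.577 and 0.882 in UUO rats (log2 fold change 2.08, SE 0.44, limma adjusted p = 0.00475). Since those lower levels lie near the 0.1 added before taking logs, the fold changes of Cd80 depend on that constant. Cd86 was 3.74, 1.50 and 4.37 FPKM in control and 18.8, 14.2 and 18.5 in adenine rats (log2 fold change 2.50, SE 0.39, limma adjusted p = 0.00169). In sham rats Cd86 was 3.24, 3.33 and 3.08 FPKM and in UUO rats 9.60, 10.4 and 10.7 (log2 fold change 1.64, SE 0.12, limma adjusted p = 5.01e-05). That UUO change was below the DEG threshold, yet the spread of Cd86 within these groups exceeded that of only 4.63% of tested entries.

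**Figure D2:**
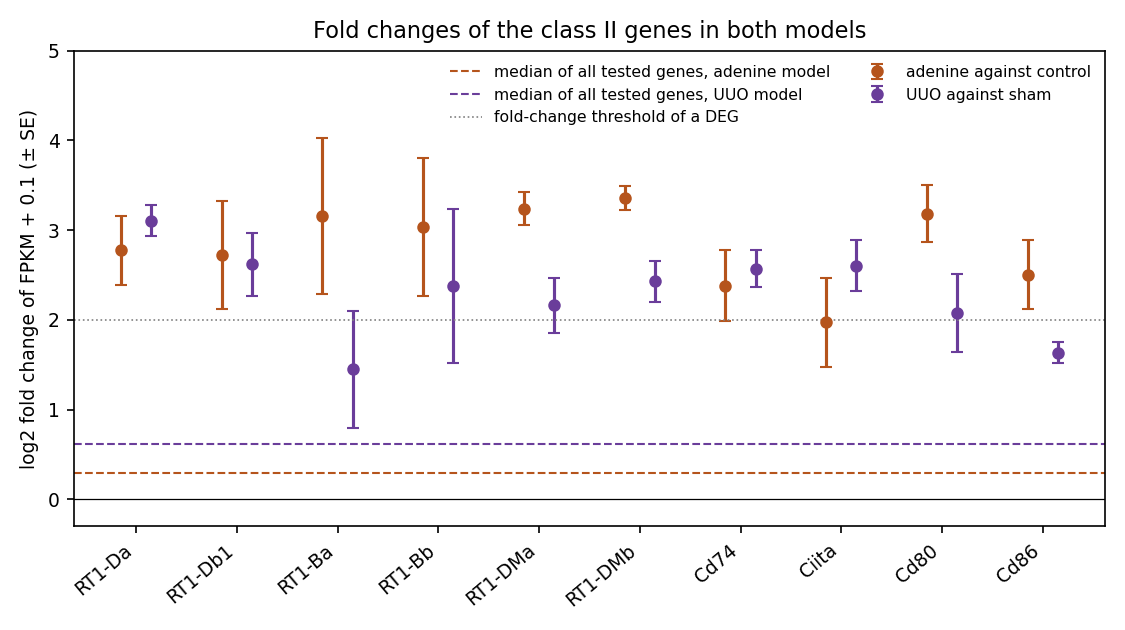
Log2 fold changes of FPKM + 0.1 with their SE (bars) for the 10 genes in the adenine model (orange) and the UUO model (purple), with dashed lines at the medians of all tested entries (0.30 and 0.62) and a dotted line at the DEG threshold. RT1-Ba and RT1-Bb have the widest bars. For RT1-Ba, RT1-DMa, RT1-DMb, Cd80 and Cd86 the adenine value is higher and the SE bars do not meet. Of these, only RT1-DMa and RT1-DMb passed the test of the difference between models.

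The fold changes of the models were then compared gene by gene, as the difference of both log2 fold changes over 13486 symbols tested once in each table. RT1-DMa was higher in the adenine model by 1.08 (SE 0.36, 95% interval 0.30 to 1.86, limma fits, adjusted p = 0.0415). RT1-DMb was higher by 0.93 (SE 0.27, 95% interval 0.36 to 1.50, limma fits, adjusted p = 0.0210). These were 2 of the 10 genes, beside 27.0% of all symbols compared, in either direction. The call on RT1-DMa was lost without adenine replicate 1 or 2, control replicate 2 or 3, UUO replicate 2 or 3, or sham replicate 1 or 2 (adjusted p = 0.0561 to 0.107), with no filter (0.0837) and with no variance trend (0.0568). The call on RT1-DMb was lost without UUO replicate 2 only (adjusted p = 0.0612). The other 8 genes did not pass, with wide intervals: RT1-Ba differed by 1.71 (95% interval -0.63 to 4.05) and Cd74 by -0.19 (95% interval -1.16 to 0.77). For Cd80 (1.11, 95% interval -0.06 to 2.27) and Cd86 (0.87, 95% interval -0.004 to 1.74) the interval only just included 0. Cd80 passed with 1 added before the log (limma fits, adjusted p = 0.0227) and without sham replicate 2 (adjusted p = 0.0478). The models also differ in agent, duration and table, which cannot be told apart here.

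Ratios of genes within a kidney show whether the members rose in proportion, and 17 ratios were tested in each model. With 3 rats against 3, the two-sided exact permutation test cannot go below p = 0.1. Cd74 relative to RT1-Da was 8.99, 6.16 and 6.70 in control rats and 5.23, 5.09 and 6.06 in adenine rats. In sham rats the same ratio was 7.27, 8.27 and 6.62 and in UUO rats 5.17, 5.55 and 4.53. It was therefore lower in every diseased rat than in any rat of its comparison group, in both models (exact permutation p = 0.1 in each, adjusted p = 0.85 in the adenine and 0.34 in the UUO model). RT1-DMa relative to RT1-Da was 0.110, 0.131 and 0.0729 in sham rats and 0.0570, 0.0647 and 0.0421 in UUO rats, without overlap (exact permutation p = 0.1, adjusted p = 0.34). In the adenine model that ratio was 0.0855, 0.0819 and 0.0943 in control and 0.105, 0.0928 and 0.195 in adenine rats, and the groups overlapped.

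RT1-Ba relative to RT1-Bb, its own partner chain, was 13.0, 5.12 and 4.75 in sham rats and 3.66, 4.51 and 2.56 in UUO rats, without overlap (exact permutation p = 0.1, adjusted p = 0.34). In the adenine model it stayed within 3.24 to 4.72 in control and 3.69 to 5.06 in adenine rats, so the chains moved together while each varied several-fold between rats. RT1-Da relative to RT1-Ba, the balance of RT1.D over RT1.B, ranged from 0.483 to 2.55 in control rats and from 0.596 to 1.01 in adenine rats. It was 2.06, 0.503 and 0.843 in sham rats and 4.90, 1.15 and 4.92 in UUO rats. UUO rats 1 and 3 held far more RT1-Da than RT1-Ba, UUO rat 2 did not, and the groups overlapped (exact permutation p = 0.2, adjusted p = 0.567). Cd80 relative to Cd86 was 0.0224, 0.0191 and 0.0270 in control and 0.0883, 0.0915 and 0.0802 in adenine rats. The direction of that ratio reversed when 1 instead of 0.1 was added to each value.

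**Figure D3:**
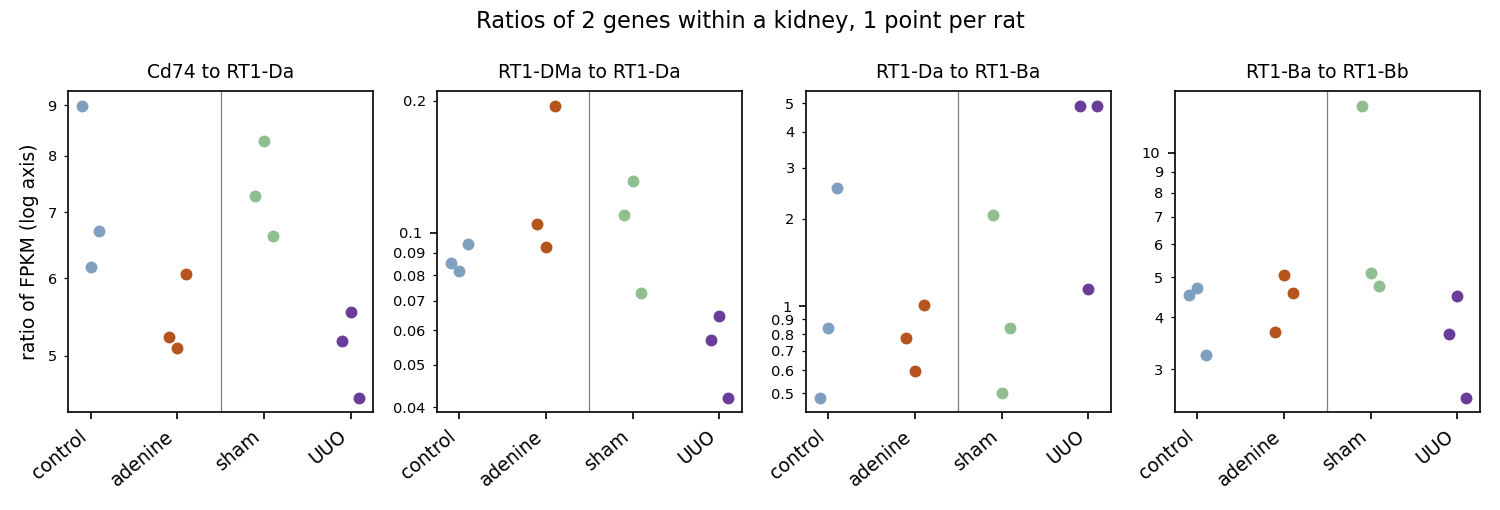
Ratios of FPKM of 2 genes within each kidney on log axes, 1 point per rat, for 4 of the 17 ratios tested. Cd74 to RT1-Da lies lower in the adenine (5.09 to 6.06) and UUO rats (4.53 to 5.55) than in their comparison groups, and RT1-DMa to RT1-Da lies lower only in the UUO rats, a difference between models that was not tested.

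Rats of 1 group differed together across the class II genes. In control rats RT1-Da, RT1-Db1, RT1-Ba, RT1-Bb, RT1-DMa and Cd74 were all highest in rat 1 and lowest in rat 3. In adenine rats the 6 chains, Cd74 and Ciita were all highest in rat 2 and lowest in rat 3. Cd80 and Cd86 did not share that order, and both were lowest in adenine rat 2. In sham rats 9 of the 10 genes were highest in rat 2, with Cd80 as the exception. In UUO rats RT1-Ba and RT1-Bb were highest in rat 2, while the RT1.D and DM chains, Cd74 and Ciita were highest in rat 1.

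Ptprc, which encodes the leukocyte antigen CD45, had the order of those class II genes in control rats but not in adenine or sham rats. It was 3.15, 2.70 and 2.55 FPKM in control rats and 32.2, 19.6 and 38.8 in adenine rats (log2 fold change 3.34, SE 0.26, limma adjusted p = 0.000108). In sham rats it was 2.24, 1.24 and 2.30 FPKM and in UUO rats 12.5, 8.91 and 19.1 (log2 fold change 2.73, SE 0.34, limma adjusted p = 0.000467). Adenine rat 2 and sham rat 2, with the highest levels of most class II genes in their groups, thus had the lowest Ptprc, whereas in control rats Ptprc, too, was highest in rat 1 and lowest in rat 3. Relative to Ptprc, all 10 genes overlapped between the control and adenine rats. RT1-Da relative to Ptprc, for example, was 11.5, 11.5 and 8.67 in control and 7.06, 16.0 and 2.90 in adenine rats. In the UUO model Cd86 relative to Ptprc was lower without overlap, at 1.45, 2.70 and 1.34 in sham and 0.768, 1.17 and 0.559 in UUO rats (exact permutation p = 0.1, adjusted p = 0.34). Cd80 relative to Ptprc, with 0.1 added to both, was also lower without overlap, but that direction reversed with nothing added. The part of leukocyte number in the class II changes was not tested.

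**Figure D4:**
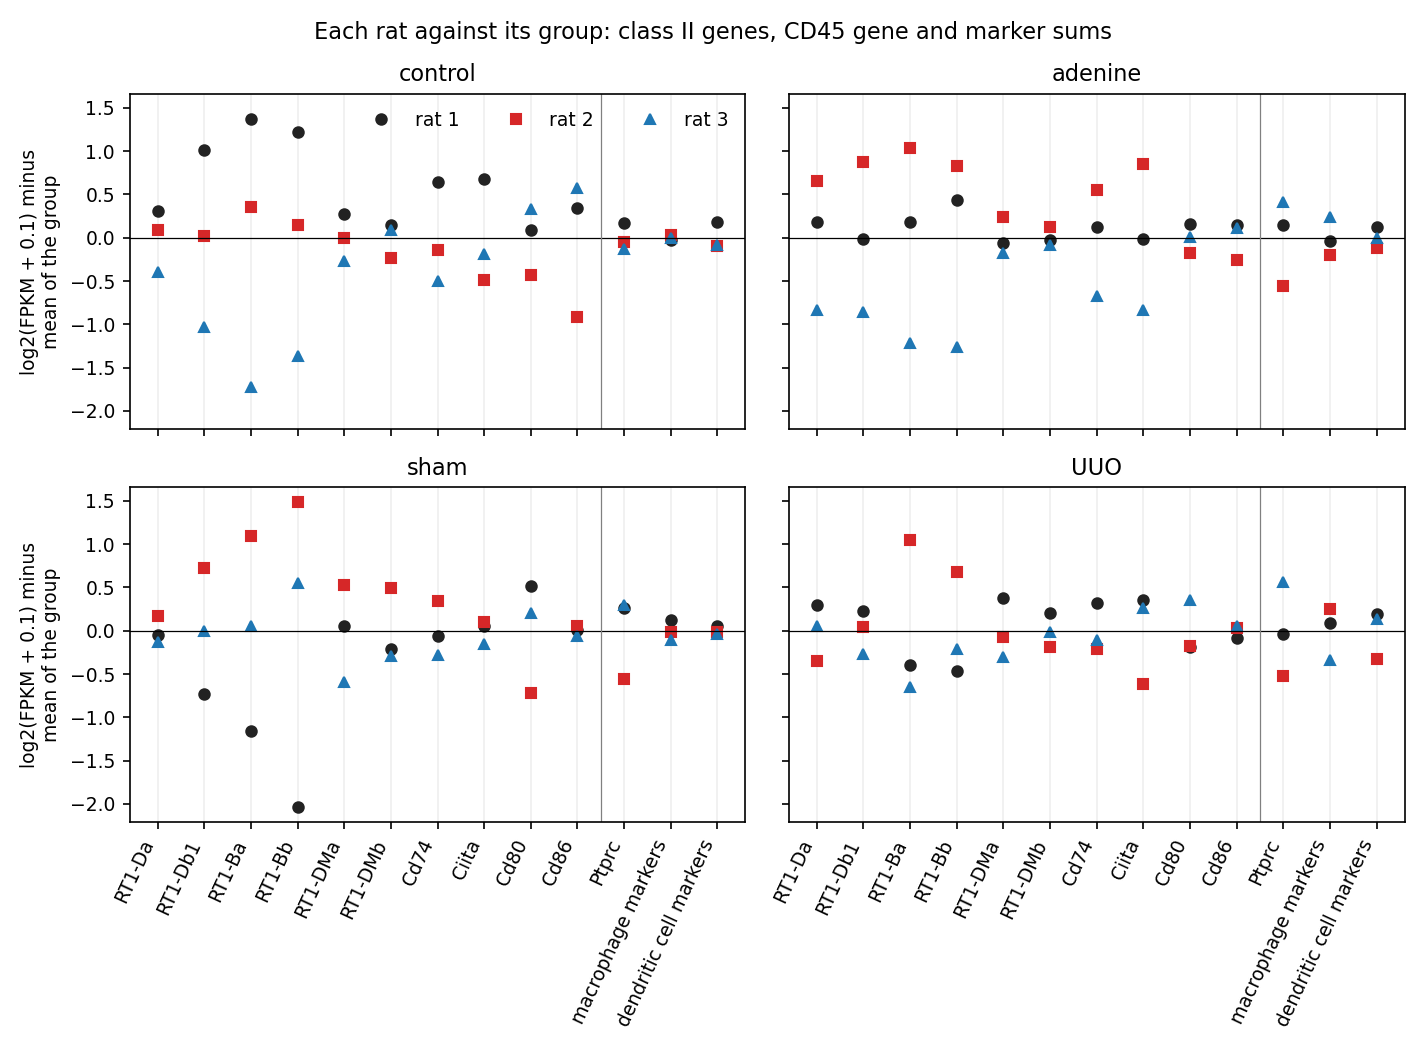
Each rat's log2(FPKM + 0.1) minus the mean of its group, for the 10 genes, Ptprc and the summed FPKM of the macrophage and dendritic cell marker lists, in 4 panels by group. Class II chains spread most for RT1-Ba and RT1-Bb, and adenine rat 2 is highest for the chains, Cd74 and Ciita and lowest for Ptprc (19.6 FPKM).

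Most markers of macrophages and dendritic cells, which carry class II, were also higher in the diseased groups. Within groups they did not always follow class II. Adenine rat 2, highest for the chains, Cd74 and Ciita, had the lowest macrophage sum (1437 FPKM) and dendritic cell sum (134 FPKM) of its group. The T cell markers Cd3e, Cd3d, Cd3g, Cd8a, Lck and Cd5 were instead highest in that rat among the adenine rats. Cd3g was 7.02, 13.1 and 8.45 FPKM and Cd3d 2.49, 5.06 and 2.96 in the adenine rats. Cd4, the other T cell marker, and the T cell sum were lowest in adenine rat 2, at 79.7 and 121 FPKM. In control and UUO rats, rat 1 had the highest dendritic cell sum and the highest Cd74. Of the macrophage markers, Itgam and Cd163 passed the minimum only through the diseased rats, and the other 10 rose in both models, 10 as DEGs in the adenine and 9 in the UUO model. Among all tested entries, 39.6% and 56.1% rose in the adenine and UUO models, and 10.7% and 13.2% were upregulated DEGs. The summed FPKM of all 12 macrophage markers went from 85.3 to 88.9 in control to 1437 to 1951 in adenine rats, and from 88.2 to 104 in sham to 852 to 1283 in UUO rats. Of the dendritic cell markers tested, 6 of 6 rose after adenine and 6 of 6 after UUO, where Xcr1 and Ccr7 are set aside because they passed through the UUO rats only. Cd209a, of the same list, was below the minimum and lay the other way, at 0.452 to 0.780 FPKM in control, 0 to 0.0523 in adenine, 0.432 to 0.998 in sham and 0.0001 to 0.198 in UUO rats. The list summed to 8.84 to 10.8, 134 to 159, 10.02 to 10.8 and 87.9 to 125 in control, adenine, sham and UUO rats. B cell markers were low, at sums of 0.740 to 1.75, 4.75 to 8.17, 0.461 to 0.842 and 6.55 to 9.96 in the same order. Each B cell marker that rose had passed the minimum through the diseased rats only, and Pax5 was below it. Of the T cell markers, 6 of 6 in the adenine table, with Cd5 set aside for the same reason, and 7 of 7 in the UUO table rose. Markers of kidney tubules went the other way, with 5 of 7 lower in the adenine and 6 of 7 in the UUO model, where 19.9% and 14.4% of all tested entries fell. Of 4 endothelial markers 1 rose and 2 fell in the adenine model, and 2 rose in the UUO model, near the background of 56.1%. The part of all these marked cells in the class II changes was not tested.

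Outside the 10 genes, the class II pathway was counted by lists. The DO chains, which restrain DM, were low. RT1-DOb was 0.616, 0.760 and 0.753 FPKM in control and 2.17, 1.63 and 2.33 in adenine rats (log2 fold change 1.39, SE 0.23, limma adjusted p = 0.00220). It was 0.692, 0.491 and 0.850 FPKM in sham and 8.80, 5.44 and 9.42 in UUO rats (log2 fold change 3.35, SE 0.29, limma adjusted p = 9.53e-05). RT1-DOb thus rose less in the adenine model, by 1.95 on the log2 scale (limma fits, adjusted p = 0.00252), the opposite direction to the DM genes. RT1-DOa rose in the UUO model (log2 fold change 1.37, SE 0.36, limma adjusted p = 0.0131) and gave 0.13 (SE 0.62, limma adjusted p = 0.871) in the adenine model. Its difference between models, -1.24 (95% interval -2.79 to 0.31), did not pass (limma fits, adjusted p = 0.216).

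Factors that sit on the X and Y boxes had smaller fold changes than Ciita. Of 7 tested, 5 rose in the adenine and 4 in the UUO model, none as a DEG, with medians of 0.56 and 1.04. Beside the 39.6% and 56.1% of all entries that rose, the UUO count is near the background. Rfx5, an RFX subunit, rose by 1.13 (SE 0.13, limma adjusted p = 0.000441) and 1.86 (SE 0.11, limma adjusted p = 2.53e-05) on the log2 scale in the adenine and UUO models. Nfya, an NF-Y subunit, rose by 1.25 (SE 0.12, limma adjusted p = 0.000256) and 1.84 (SE 0.18, limma adjusted p = 0.000152). Other subunits did not all rise. Rfxank gave -0.16 and -0.09, and Nfyc -0.20 and 0.004, and neither passed in either model. Rfxap rose by 0.39 (limma adjusted p = 0.0277) in the adenine model. In the UUO model Rfxap gave -0.78 (SE 1.26, limma adjusted p = 0.594), with UUO rat 2 at 0.225 FPKM.

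Genes of interferon gamma signalling rose in most cases, 6 of 7 tested after adenine and 7 of 7 after UUO, beside 39.6% and 56.1% of all entries. Ifng itself was too low to test. In the adenine table it was listed at 0 in 5 of the 6 samples and at 0.0669 FPKM in control rat 1. In the other table it was listed at 0.0001, the lowest value there, in all 3 sham rats and UUO rat 2. UUO rats 1 and 3 had 0.0918 and 0.432 FPKM of Ifng. Irf1, an interferon-induced activator that acts on Ciita, rose by 2.31 (SE 0.11, limma adjusted p = 2.61e-05) in the adenine and 3.34 (SE 0.16, limma adjusted p = 1.49e-05) in the UUO model. Socs1, a feedback inhibitor, gave -0.40 on the log2 scale (SE 0.26, limma adjusted p = 0.222) in the adenine model and rose by 1.80 (SE 0.37, limma adjusted p = 0.00441) in the UUO model.

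Endosomal proteases process both antigen and the invariant chain. Of 10 tested genes, 8 rose in each model, 4 as DEGs in the adenine and 2 in the UUO model, with medians of 1.47 and 0.75. Of all entries 39.6% and 56.1% rose, and 10.7% and 13.2% were upregulated DEGs, so the DEG count of the UUO model is near the background. Ctss, the cathepsin that trims the invariant chain, was 17.7, 19.9 and 17.4 FPKM in control and 423, 312 and 397 in adenine rats, and 20.2, 16.2 and 14.5 in sham and 183, 205 and 146 in UUO rats. Its log2 fold changes were 4.35 (SE 0.14, limma adjusted p = 1.89e-05) and 3.38 (SE 0.17, limma adjusted p = 1.65e-05), larger than that of Cd74 in each model. Ifi30, the thiol reductase of the endosome, rose by 1.79 (SE 0.13, limma adjusted p = 9.24e-05) and 1.22 (SE 0.12, limma adjusted p = 0.000186).

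Other costimulatory genes were few once those that the filter favoured were set aside. Tnfsf9, Cd70 and Cd274 in the adenine table and Tnfsf9 in the UUO table reached the minimum for testing only through the diseased rats, as Cd80 did. Of the others, both tested genes rose in the adenine model (Cd40 and Cd83) and 3 of 3 in the UUO model (Cd40, Cd83 and Cd274). These counts are small, and 39.6% and 56.1% of all tested entries rose in the adenine and UUO models. Cd83, an activation marker of dendritic cells that stabilises surface class II, was 3.23, 3.05 and 2.69 FPKM in control and 51.3, 45.5 and 44.6 in adenine rats, and 4.42, 4.81 and 4.05 in sham and 27.2, 19.4 and 18.9 in UUO rats. It rose more in the adenine model by 1.68 on the log2 scale (limma fits, adjusted p = 0.000214). Of the partners of these ligands on T cells, Ctla4 and Pdcd1 in the adenine table and Ctla4, Cd40lg, Tnfrsf4 and Lag3 in the UUO table passed the minimum only through the diseased rats. Of the others, 4 of 4 rose in the adenine and 2 of 3 in the UUO model, where the count is near the background of 56.1%. Cd28, the receptor of Cd80 and Cd86, gave 0.73 on the log2 scale (SE 0.51, limma adjusted p = 0.234) after UUO. March1, the ligase that removes class II from the surface, rose by 1.895 (SE 0.30, limma adjusted p = 0.00137) in the UUO model and, listed as Marchf1, by 3.13 (SE 0.43, limma adjusted p = 0.00102) in the adenine model, and it too passed the minimum through the diseased rats only.

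Class I presentation, the parallel pathway, is given beside class II because several of its genes lie in the same stretch. Of 14 tested genes, 12 rose in the adenine model, 4 as DEGs, and 14 rose in the UUO model, 10 as DEGs; Nlrc5, one of the adenine DEGs, passed the minimum through the adenine rats only. With median-of-ratios scaling the class I DEGs were 2 and 6. In 8 of the 14 genes the log2 fold change was higher in the UUO model, and in 0 in the adenine model (limma fits, adjusted p under 0.05). Among the 10 class II members the same test gave 2 genes higher in the adenine and 0 higher in the UUO model. Since 27.0% of all symbols compared differed in either direction, 2 of 10 is not above the background. Psmb8, Psmb9, Tap1 and Tap2, which lie among the class II genes on chromosome 20, were all among those 8, whereas RT1-DMa and RT1-DMb, their neighbours, differed in the opposite direction.

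**Figure D5:**
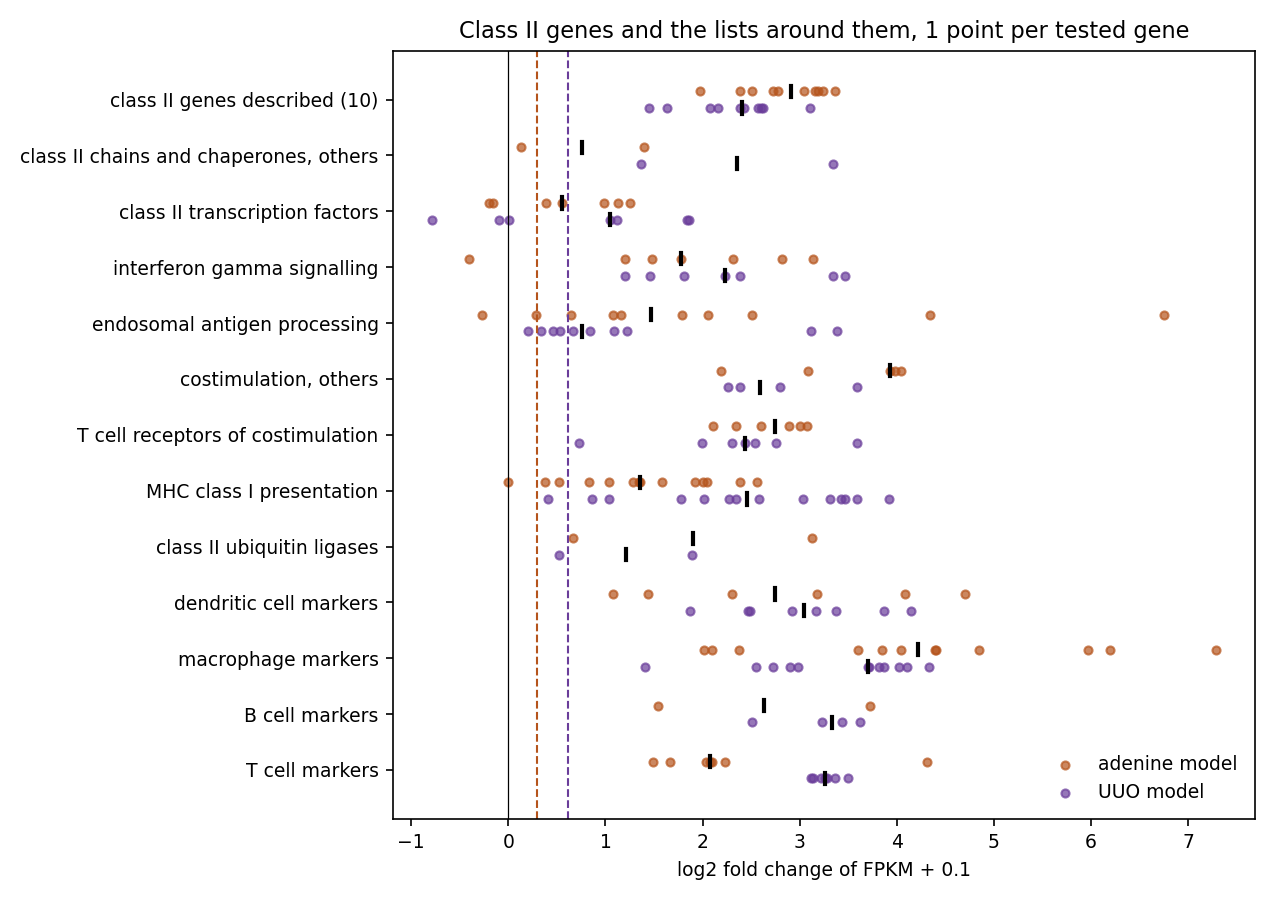
Log2 fold changes of every tested gene in the 10 genes described and the lists around them, in the adenine model (orange) and the UUO model (purple), with black bars at list medians and dashed lines at the medians of all tested entries (0.30 and 0.62). Class I presentation has its median at 1.35 in the adenine and 2.46 in the UUO model, while the 10 genes have 2.91 and 2.41.

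The order of levels of the 10 genes was similar in all groups. Cd74 was first, followed in control, adenine and sham kidneys by RT1-Ba, RT1-Da, RT1-Db1, RT1-Bb and RT1-DMb, whose neighbours in that order overlapped in range. In UUO kidneys RT1-Da came second, at a mean of 362 FPKM (SD 78.7, n = 3), ahead of RT1-Db1 at 153 (SD 26.4) and RT1-Ba at 136 (SD 94.0), and its range did not overlap with that of RT1-Db1. Ciita was ninth and Cd80 last in every group, and their ranges overlapped in the adenine kidneys alone.

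The pattern nearest to Cd74 over the 12 samples was that of Ciita, with a root mean square difference of 0.324 on the log2 scale after subtracting the control or sham mean. No other symbol of the 13486 compared was nearer. Among genes outside the 10, Mybph (0.326), Aldh18a1 (0.328), Paqr4 (0.328), Limk1 (0.342) and Inpp5d (0.345) were nearest. RT1-Da, at 0.368, had 10 non-members nearer to Cd74 than itself and RT1-Db1, at 0.378, had 18. RT1-Bb and RT1-Ba, at 0.931 and 1.03, were far less like Cd74, with 1849 and 2362 non-members nearer. This likeness uses the same samples as the fold changes and carries no test.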

How the data were processed

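Kidney RNA from 12 rats (4 groups of 3, assigned by their labels) was sequenced by the authors from poly(A) RNA in stranded paired-end libraries. The authors deposited FPKM values per gene in 2 tables, made separately for control with adenine and sham with UUO. The submitters' processing notes name cutadapt 1.9, HISAT2 2.0.4, StringTie 1.3.4d, edgeR and DESeq2. The genome build and annotation are not given in the sources used here. FPKM holds no read counts, so depth and counting error are unknown.

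Within each table, log2(FPKM + 0.1) of entries with FPKM of at least 0.5 in 3 of 6 samples was tested with limma 3.58.1 (R 4.3.3, variance trend) and Benjamini-Hochberg adjustment over all tested entries. DEGs had to pass 0.05 after adjustment and to move by at least 2 on the log2 scale. Differences between models divided the difference of fold changes by the root of their summed squared SE, with t on the summed degrees of freedom. Ratios were tested by two-sided exact permutation (SciPy 1.17.1), adjusted over the 17 of a model. The fits were tested on simulated data. Alternatives were other added constants, filters, scalings, no trend, a replicate block and each sample left out. Promoters came from RefSeq (GRCr8), with motifs searched on both strands.

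The members and lists were chosen with earlier results of these data known. All members were named, any gene of the lists could be, and the 5 symbols nearest to Cd74 were. Ptprc was named as the leukocyte reference. Some genes of the lists are not reported here and were left out of the counts and sums.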

Additional observations from a re-analysis of the deposited data

Results flagged for a closer look

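The log2 fold changes of 2 of the 10 class II genes differed between the models in the test of the difference (limma fits, adjusted p over 13486 symbols), given as adenine minus UUO. RT1-DMa differed by 1.08 (adjusted p = 0.0415) and RT1-DMb by 0.93 (adjusted p = 0.0210). Of all symbols compared, 27.0% differed, so 2 of 10 is not above the background. The call on RT1-DMa was lost without any 1 of 8 of the 12 samples, with no filter (adjusted p = 0.0837) and with no variance trend (adjusted p = 0.0568). RT1-DOb, whose product restrains DM, differed the other way, by -1.95 (adjusted p = 0.00252).

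Among regulators, the same difference was -0.74 for Rfx5 (adjusted p = 0.00659), -1.03 for Irf1 (adjusted p = 0.00244) and -2.21 for Socs1 (adjusted p = 0.00419). Of the endosomal genes, Ctss differed by 0.96 (adjusted p = 0.00672), Ctsb by 1.39 (adjusted p = 0.00163), Ctsd by 1.43 (adjusted p = 0.00314), Ctsk by 3.63 (adjusted p = 9.58e-05) and Ifi30 by 0.57 (adjusted p = 0.0328), while Ctsl differed by -0.61 (adjusted p = 0.0257). Cd83 differed by 1.68 (adjusted p = 0.000214).

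All 8 class I genes that passed had the larger fold change in the UUO model. The differences were -1.37 for Tap1 (adjusted p = 0.00659), -1.03 for Tap2 (adjusted p = 0.0154), -1.23 for Tapbp (adjusted p = 0.00666) and -0.66 for Pdia3 (adjusted p = 0.00712). They were -1.36 for Psmb8 (adjusted p = 0.00327), -2.005 for Psmb9 (adjusted p = 0.000756), -1.40 for Psmb10 (adjusted p = 0.00110) and -1.08 for Nlrc5 (adjusted p = 0.0406).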

How the results depend on the processing

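Among the 10 genes' fold changes, 267 values under alternatives kept their direction and side of the threshold, 8 lost the call, 3 gained it and 0 reversed. DEGs numbered 9 in the adenine model (8 to 10 with 1 sample left out). The 8 DEGs of the UUO model became 3 with median-of-ratios scaling, where Cd80 was not tested, and 5 with 1 added before the log (6 to 7 with 1 sample left out). Genes past the adjusted p numbered 9 to 10 and 8 to 10 with 1 sample left out. These fits kept the entries tested with all samples, a choice made after seeing the data, because Cd80 falls below the minimum when any adenine or UUO rat is left out. With the minimum applied again the DEGs were 7 to 10 and 5 to 7 and the genes past the adjusted p 8 to 10 and 7 to 10, and RT1-Ba also lost its call without adenine replicate 1. Members that differed between models numbered 2, but 1 with no filter and 1 with no trend. With 1 added before the log they numbered 3, as Cd80 also passed (limma fits, adjusted p = 0.0227). They numbered 0 (without UUO replicate 2) to 2 with 1 sample left out. Of the ratios, Cd80 to Cd86 in the adenine model changed from 0.68 to -0.97 on the log2 scale with 1 added, and Cd80 to Ptprc in the UUO model from -0.65 to 0.76 with nothing added, since Cd80 lies near or below the constants added. Replicate numbers did not pair the rats, which are different animals (correlations of same-numbered deviations -0.0772, -0.123 and -0.0487 in the adenine and 0.050, 0.105 and 0.0593 in the UUO model, where each sample correlated best with its own number). With the replicate block the DEGs were 9 and 8, the genes past the adjusted p 10 and 10 (RT1-Ba in the UUO model at 0.00998) and the differences 3. Of the list counts, 365 stayed within 1.5 times and 27 did not. With 3 rats a group and FPKM alone, the spread of RT1-Ba and RT1-Bb limits what could be called.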
